A study of Mus musculus with 18 samples.

Results

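The genes examined were 9 core pluripotency genes, Pou5f1, Nanog, Sox2, Klf4, Esrrb, Lin28a, Utf1, Zfp42 and Tcl1, chosen by name, with earlier results of these data known, out of 21887 coding genes in the RefSeq gene table. For each gene, all called H3K4me3 peaks were collected from the gene model and 5 kb on each side of it, a window that takes in the promoter and the nearby upstream enhancers but none further away. H3K4me3 is the trimethylated form of lysine 4 on histone H3, and CUT&RUN maps it by tethering a nuclease to antibody-bound chromatin and sequencing the fragments it frees. The material was mouse fetal male germ cells (prospermatogonia) of stage E17.5, positive for an Oct4-GFP reporter, with 4000 nuclei of cryopreserved cells per library. The 3 genotypes compared had 3 biological replicates of each per the series design: Tet1+/+ (wild type, WT), Tet1-/- (knockout, KO) and Tet1HxD/HxD (HxD, an allele known to lack the catalytic activity of TET1). All cells shared the reporter, the stage and 1 batch label. The sources used here give neither the strain nor the breeding. The series had 18 samples, of which the 9 IgG controls were not analysed here.

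Pluripotency is held by a small circuit of transcription factors that bind their own and each other's enhancers. Germ cells of the embryo share part of that circuit: primordial germ cells express Pou5f1 and Nanog, and male germ cells lower Nanog, Sox2 and related genes as they enter mitotic arrest, while Pou5f1 persists for longer. H3K4me3 sits around the starts of genes that are active or poised, and CpG-rich promoters can keep the mark without much transcription. A peak is therefore not a measure of expression. TET1 oxidises 5-methylcytosine and also acts as a scaffold for chromatin proteins, and the series title poses the question of its non-catalytic role, which the comparison of KO with HxD addresses.

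The promoters of 4 members are printed. At Nanog, Pou5f1 and Klf4 the called peaks differed between libraries at or beside the start, and Zfp42 shares a motif with Nanog. Sox2 and Esrrb also differed there, and Sox2 carries that motif too, but they are not printed, so the choice is not a ranking. Each line is the 250 bases before the first listed start, read 5′ to 3′ on the strand of the gene, from RefSeq on GRCm38.p6 (the mm10 assembly). Capitals mark the octamer core TTTGCAT, the Sox core ACAATG and the GC box GGGCGG on either strand. Nanog is chr6:122707239-122707488 (+), Pou5f1 chr17:35505782-35506031 (+), Klf4 chr4:55532476-55532725 (-) and Zfp42 chr8:43307010-43307259 (-).
Nanog: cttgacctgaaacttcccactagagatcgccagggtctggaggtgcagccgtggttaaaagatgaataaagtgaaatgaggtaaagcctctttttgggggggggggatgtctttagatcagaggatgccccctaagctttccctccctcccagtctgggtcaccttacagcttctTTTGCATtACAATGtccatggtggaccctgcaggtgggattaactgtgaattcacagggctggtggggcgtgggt
Pou5f1: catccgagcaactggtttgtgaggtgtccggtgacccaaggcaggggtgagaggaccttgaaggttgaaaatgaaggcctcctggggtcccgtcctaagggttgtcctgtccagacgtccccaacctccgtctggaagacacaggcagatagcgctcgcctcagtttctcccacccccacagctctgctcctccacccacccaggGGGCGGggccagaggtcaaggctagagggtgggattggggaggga
Klf4: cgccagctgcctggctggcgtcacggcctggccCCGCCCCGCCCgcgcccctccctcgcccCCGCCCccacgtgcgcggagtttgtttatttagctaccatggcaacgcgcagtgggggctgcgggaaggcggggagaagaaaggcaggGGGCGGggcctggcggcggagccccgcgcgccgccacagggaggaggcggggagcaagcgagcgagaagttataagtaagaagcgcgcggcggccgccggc
Zfp42: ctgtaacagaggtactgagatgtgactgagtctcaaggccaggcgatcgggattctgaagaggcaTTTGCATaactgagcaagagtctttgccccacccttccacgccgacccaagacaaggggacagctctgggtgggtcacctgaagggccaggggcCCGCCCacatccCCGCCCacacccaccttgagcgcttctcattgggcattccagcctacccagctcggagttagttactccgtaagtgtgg

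In the Nanog promoter the octamer core began 75 bases and the Sox core 67 bases before the start, an arrangement known as a joined Oct-Sox element. The octamer core occurred in 3.77% of 17492 listed promoters, and among the members in Nanog, Sox2 and Zfp42. The Sox core occurred in 9.57% of promoters, and among the members in Nanog and Lin28a. The GC box was in 42.7% of promoters and in 6 members, all but Nanog, Esrrb and Lin28a. A TATAAA box, in 12.4% of promoters, was in no member. A match describes the letters and does not show binding. The promoters also spanned a wide range of CpG content, from 3 CpG in the 250 bases of Nanog to 27 in Sox2 and 32 in Klf4, with 6 in Esrrb, 7 in Lin28a and in Tcl1, 8 in Pou5f1, 9 in Zfp42 and 14 in Utf1. The median promoter held 10.

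The deposited lists differed in length by genotype. WT lists held 83586 to 128701 peaks (76.6 to 108.9 Mb covered), KO lists 69901 to 80232 (50.5 to 73.0 Mb) and HxD lists 49624 to 67925 (45.6 to 69.3 Mb). KO replicate 1 stood apart by its short peaks, with a median of 433 bp against 641 to 793 bp in the other lists. Read depth is not known from peak lists. At the targeted gene, Tet1 (chromosome 10, 62804570 to 62887469), peaks covered 5159, 5467 and 7027 bp in WT, 3674, 6505 and 8023 in KO, and 6840, 4976 and 3743 in HxD, which overlap and do not check the genotype, since a promoter can stay when coding sequence is lost. The germ cell label was set against marker genes. Of 10 prospermatogonia genes, 7 had a peak in all 9 libraries, and Nanos3 had one in 8, Piwil4 in 7 and Mael in 6. Peaks were also present in all 9 libraries at 8 of 8 Sertoli, 6 of 8 Leydig or interstitial and 7 of 8 endothelial or blood genes, so the marker lists did not separate the cell types by presence of a peak. Summed covered length over the Sertoli genes ranged over 49098 to 61542 bp in WT, from 31952 to 50634 across KO, and from 31993 to 52320 across HxD. In the same order of genotypes, the Leydig or interstitial genes had 29488 to 43187, 19671 to 32097 and 22335 to 31312 bp, and the endothelial or blood genes 17723 to 28265, 12750 to 18184 and 13202 to 17458 bp. Limma called 1 Sertoli gene (Fshr, both mutants against WT) and 1 blood gene (Ptprc, KO and both mutants against WT) as lower. Over all genes, 2.01% were called lower in KO and 5.38% in both mutants. No prospermatogonia gene was called, and none of the 6 Leydig or interstitial genes tested. Star, a defining Leydig gene, had a peak in 1 library, Hsd3b1 in 2 and the macrophage gene Csf1r in 1, so these genes were not tested. The prospermatogonia genes had 13435 to 22755, 14864 to 24579 and 10954 to 18884 bp, and the 9 pluripotency genes 33539 to 44537, 37432 to 52242 and 35365 to 46415 bp. Of the 6 mutant libraries, 3 lay below the lowest WT sum for the Sertoli genes, 3 for the Leydig or interstitial genes and 5 for the endothelial or blood genes, and the rest lay within the WT range. For the Sertoli and Leydig lists these were KO replicate 1 and HxD replicates 2 and 3. These libraries also had the lowest mean covered length over all coding genes (1995, 1951 and 2018 bp, against 2428 to 3272 bp in WT). The part of these cell types in the differences of the members was not tested.

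All 9 genes had at least 1 peak in every library, and the marked share of the window differed widely between genes. Averaged over the 9 libraries, peaks covered 44.2% ± 12.9 of the window of Sox2, 40.1% ± 6.67 of Utf1, 29.5% ± 2.12 of Klf4, 22.2% ± 4.20 of Lin28a, 20.1% ± 7.63 of Pou5f1, 18.3% ± 8.66 of Nanog, 16.9% ± 3.94 of Tcl1, 14.4% ± 2.53 of Zfp42 and 4.81% ± 1.01 of the long gene Esrrb (SD, n = 9). Neighbours in this order overlapped in their range over libraries, except Esrrb, whose highest library (6.79%) lay below the lowest of Zfp42 (10.7%). The peaks of the 9 windows merged into 48 regions, of which 16 were present in all 9 libraries and 21 in a single library. No region was in every library of WT and in none of a mutant genotype, nor the reverse.

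None of the 9 genes passed the test in either mutant, while Pou5f1 and Nanog had more covered length in every mutant library than in any WT library. Limma, fitted on 18470 coding genes with Benjamini-Hochberg adjustment, called 0 of 9 members in KO against WT (percent called over all genes, 2.11), 0 in HxD against WT (2.93), 0 in both mutants against WT (5.55) and 0 in KO against HxD (0). At an unadjusted p under 0.05, limma had 2 members as higher in KO (Pou5f1 and Nanog, against 4.58% of all genes). It had 1 as lower in HxD (Esrrb, against 18%). In both mutants it had 2 as higher (2.74%) and 1 as lower (18.9%), again these genes. Between KO and HxD it had 0 members, against 3.6% of all genes as higher in KO and 0.152% as lower. Groups did not overlap for 3 members that were higher in KO (Pou5f1, Nanog and Utf1; 6.6% of all genes) and 2 that were higher in HxD (Pou5f1 and Nanog; 2.05%), and 1 was lower in HxD (Esrrb; 20.2%). Pou5f1 and Nanog alone had all 6 mutant libraries above all WT libraries (1.34% of all genes). Among all genes the tilt was toward less covered length in the mutants, with a median difference of −95.7 bp for KO and −370.3 bp for HxD, against medians of 1197 bp and 480 bp over the members. The mean was higher than WT for 6 of 9 members in KO (44.8% of all genes), for 6 of 9 in HxD (26.6%) and for 7 of 9 in both mutants (35.8%). Both comparisons use the same 3 WT libraries, so they are not independent. The split of calls over all genes moved with the scaling. In KO there were 19 higher and 371 lower calls, against 362 and 158 when every list was cut to the 49624 strongest peaks, and 836 and 749 when the mean over all genes was subtracted from each library. In HxD these pairs were 4 and 537, 20 and 36, and 424 and 570. For both mutants together they were 33 and 993, 522 and 271, and 1354 and 1015. After that subtraction (centring), Nanog and Pou5f1 were called higher in each mutant, where 4.53% of all genes in KO and 2.3% in HxD were called higher, and these genes and Sox2 were called in the mutants together (7.33%).

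**Figure D1:**
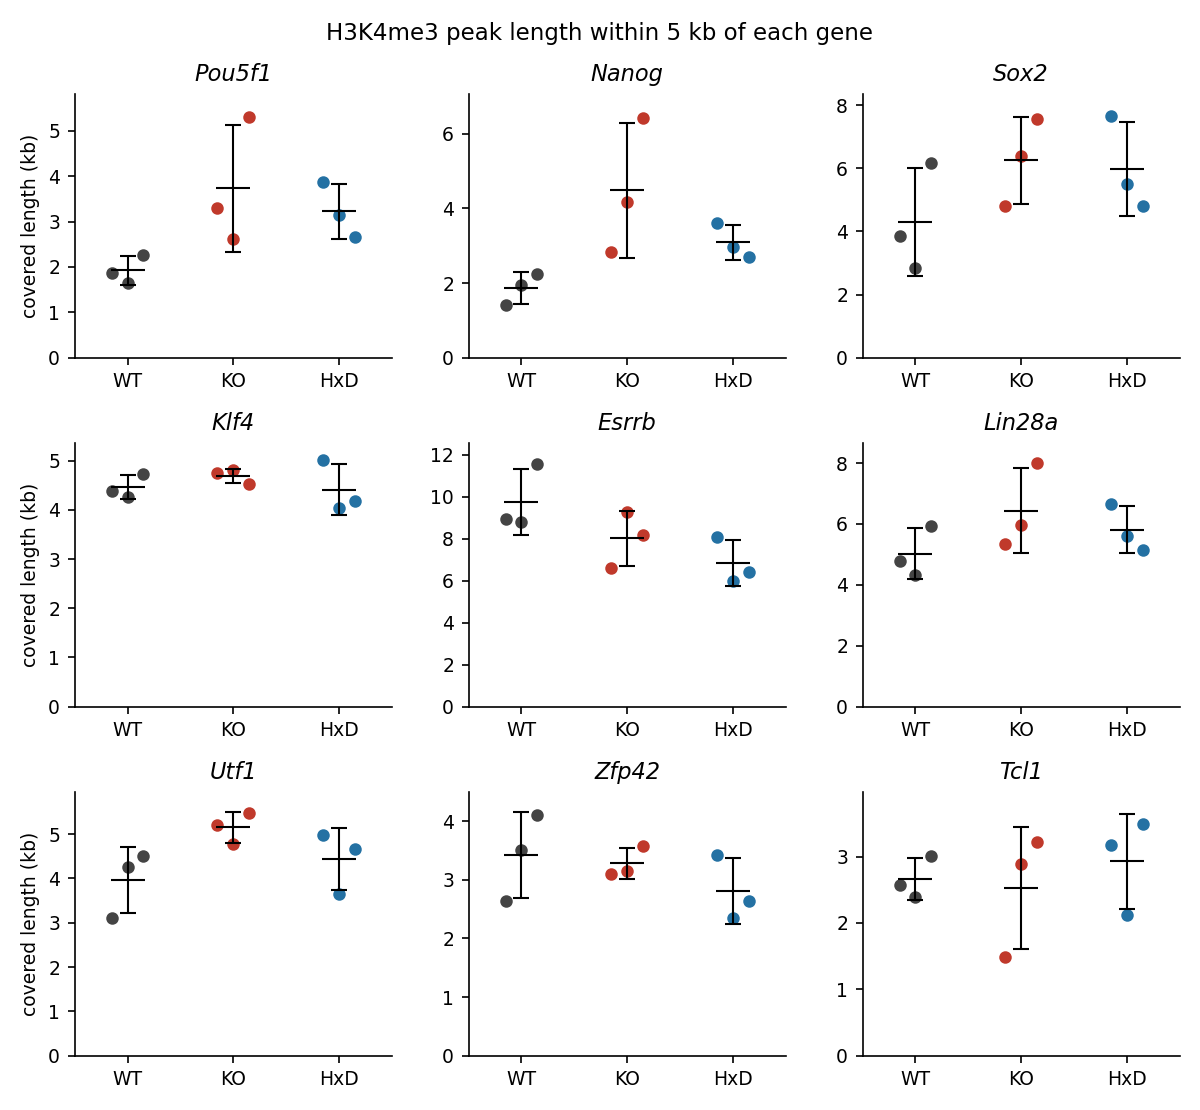
Covered length (kb) within 5 kb of each of the 9 genes in WT, KO and HxD; points are libraries in the order of their replicate numbers, and bars are the mean ± SD (n = 3 each). At Pou5f1 and Nanog all 6 mutant libraries sit above the 3 WT libraries, while at Klf4, Zfp42 and Tcl1 the genotypes overlap.

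Pou5f1 (chromosome 17, 35506032 to 35510777, + strand) encodes OCT4, the POU factor at the head of the circuit, and names the reporter by which the cells were chosen. Its peaks covered 1861, 1636 and 2270 bp in WT replicates 1 to 3, 3294, 2619 and 5310 in KO, and 3866, 3145 and 2664 in HxD. Every mutant library was above the highest WT library. The means were 1922 ± 321, 3741 ± 1400 and 3225 ± 605 bp (SD, n = 3 each). The difference from WT was 1819 ± 634 bp (SE) in KO and 1303 ± 634 bp in HxD, with adjusted p = 0.148 and 0.286 by limma. Exact two-sided permutation p was 0.1 in each mutant, the smallest that 3 libraries against 3 allow, and 0.0238 for the 6 mutant libraries against WT, again the smallest possible. Without KO replicate 3 the KO difference was 1034 bp (limma adjusted p = 0.422). After centring it was 2116 bp (0.00803) in KO and 1956 bp (0.0189) in HxD.

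Most of the added length at Pou5f1 lay on the flanks of the peak over its start, which was present in all 9 libraries. In WT that peak ran from −1242 to 618, −636 to 999 and −998 to 1271 bp relative to the start, in KO from −1387 to 1634, −1297 to 942 and −2290 to 2063 bp, and in HxD from −2035 to 1830, −1509 to 1393 and −1029 to 1634 bp. Its width was 1922 ± 321 bp in WT, 3205 ± 1069 bp for KO and 3144 ± 636 bp for HxD (SD, n = 3 each), so KO replicate 2 (2240 bp) fell within the WT range. Pou5f1 is known to have a proximal and a distal enhancer upstream of its start, and the distal one serves germ cells. Short separate peaks upstream were called in KO replicate 2 (−3272 to −2894 bp), KO replicate 3 (−3933 to −3292 bp) and HxD replicate 2 (−2231 to −1990 bp), and in no WT library. The start of the noncoding gene Gm32362 lies at −295 bp and CUT&RUN peaks carry no strand, so the peak cannot be assigned to either gene. At the far edge of the window, KO replicates 1 and 3 had peaks that begin 9432 to 9474 bp from the start, close to the start of the neighbour Tcf19. With only 1 kb on each side of the listed starts, the differences were 327 bp for KO and 268 bp for HxD (limma adjusted p = 0.353 and 0.538). Peaks there covered 1751 ± 215 bp in WT, 2078 ± 186 bp for KO and 2020 ± 32.3 bp for HxD (SD, n = 3 each). Length added further than 1 kb from a listed start is not counted in that window. The sources used here do not say how the reporter was built, and reads from reporter DNA made of Pou5f1 sequence would align at this gene in all genotypes.

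Nanog (chromosome 6, 122707489 to 122714633, + strand), the homeobox factor that stabilises the pluripotent state, had the largest KO difference of the 9 genes. Its peaks covered 1398, 1957 and 2240 bp in WT, 2843, 4168 and 6425 in KO, and 3605, 2971 and 2693 in HxD. The groups did not overlap, although KO replicate 3 stood well above the rest. The difference was 2614 ± 726 bp (SE) in KO and 1225 ± 726 bp in HxD, with adjusted p = 0.0768 and 0.397 by limma, and 1919 ± 629 bp for both mutants together (0.0867). Exact two-sided permutation p was 0.1, 0.1 and 0.0238, each the smallest possible. Nanog was called in KO with lists of equal length (limma adjusted p = 0.0426; 2.05% of all genes called higher, and 2.95% in both mutants), with 2 kb on each side of the gene (0.0250; 0.106%, and 0.19% in both mutants), after centring (0.000642) and without KO replicate 1 (3432 bp, 0.0395; 0.0596%, and 0.26% in both mutants). Without KO replicate 3 the difference was 1641 bp (0.231), and with 10 kb on each side 1742 bp (0.396), in a range of adjusted p from 0.000642 to 0.396 over 21 settings. In HxD it was called after centring (1878 bp, 0.0323), in a range from 0.0323 to 0.845.

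The marked regions of Nanog are given by the full length of their peaks, parts of which reach past the window. An upstream region, from −5.589 to −3.658 kb of the start, lies where an enhancer of Nanog is known in embryonic stem cells. It had a peak in all 9 libraries, of 1682, 1692 and 1679 bp in WT, 404, 1491 and 1914 in KO, and 1862, 1209 and 1334 in HxD. The WT lengths were nearly equal, and each mutant genotype had a library above them and others below. The start region, from −1.515 to 1.793 kb, had 0, 744 and 379 bp in WT, 1916, 2172 and 3309 in KO, and 1929, 1985 and 1708 in HxD, so the lowest mutant library (1708 bp) lay above the highest WT library (744 bp). A region inside the gene, from 5.366 to 6.07 kb, had a peak in 2 WT, 3 KO and 1 HxD libraries, with 563 bp at most. A region from 7.818 to 9.027 kb had a peak only in KO replicate 2 (366 bp) and KO replicate 3 (1210 bp), and one from 12.094 to 13.173 kb, across the edge of the window, only in WT replicate 3 (1080 bp).

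The base of the Nanog start itself was under a peak in 0 of 3 WT, 3 of 3 KO and 3 of 3 HxD libraries. That pattern, every mutant and no WT library, was shared by 91 of 17492 genes with a listed start (0.52%), and its reverse was seen for 0.172%. A start under a peak in all 9 libraries, as for Pou5f1, Lin28a, Zfp42 and Tcl1, was seen for 24.9%. Within 1 kb of the 2 listed Nanog starts, which lie 76 bp apart, peaks covered 374 ± 372 bp in WT, 1938 ± 129 bp for KO and 1668 ± 297 bp for HxD (SD, n = 3 each). In a limma fit on that window, added after the data were seen, the difference for both mutants against WT was 1429 bp with adjusted p = 0.0390, a call made for 0.341% of 12595 genes as higher. The separate differences were 1564 bp in KO (0.0787) and 1294 bp in HxD (0.116), and no gene was called in either. In WT replicate 2 a peak from −531 to −20 bp covered most of the printed promoter and stopped short of the start, and in WT replicates 1 and 3 no peak touched the printed bases. The joined Oct-Sox element was under a peak in all 6 mutant libraries and in WT replicate 2.

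**Figure D2:**
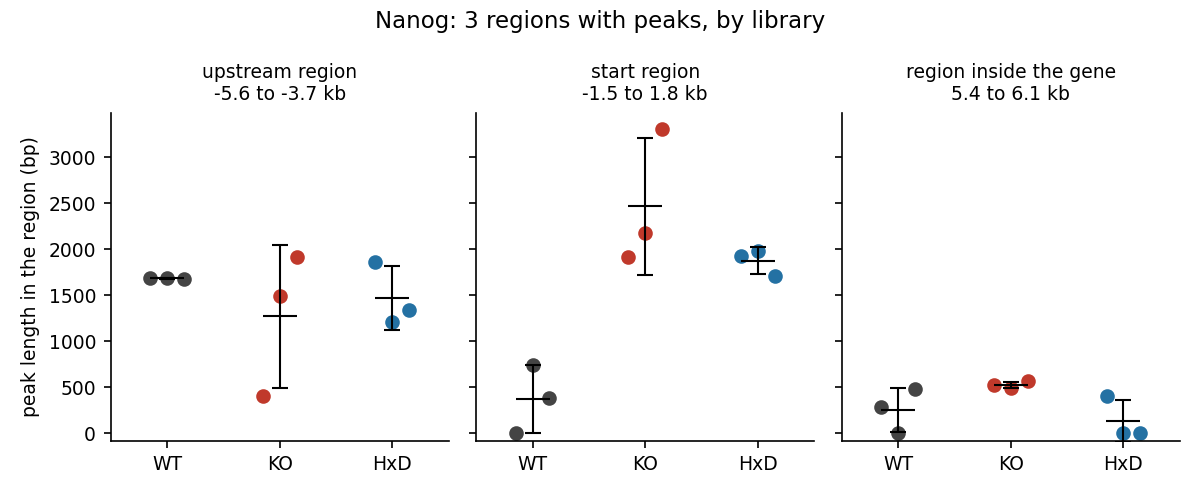
Peak length (bp) in 3 regions of the Nanog window, with distances from the listed start in the panel titles; points are libraries by replicate number, bars the mean ± SD (n = 3 each). In the start region the WT libraries have 0 to 744 bp and the mutant libraries 1708 to 3309 bp, whereas in the upstream region all genotypes overlap.

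Sox2 and Klf4, the other classic reprogramming factors, had no difference in total length that passed the test, while at both the start was uncovered in most WT libraries. Sox2 (chromosome 3, 34649995 to 34652461, + strand), the HMG-box partner of OCT4, had 3838, 2854 and 6170 bp in WT, 4810, 6381 and 7549 in KO, and 7638, 5496 and 4803 in HxD. WT replicate 3 overlapped both mutants. The difference was 1959 ± 1041 bp for KO and 1692 ± 1041 bp for HxD (SE; limma adjusted p = 0.348 and 0.419). Without WT replicate 3 it was 2901 bp in KO (0.192), and without WT replicate 2 it was 1243 bp (0.626). In HxD it was 862 bp without HxD replicate 1, 975 bp without WT replicate 2 and 2633 bp without WT replicate 3. For both mutants together the difference was 1826 bp (0.260), and after centring 2301 bp with a call (0.0181). The Sox2 start was under a peak in 1 of 3 WT, 3 of 3 KO and 3 of 3 HxD libraries. In WT replicates 1 and 2 the stretch around the start with no peak was 746 and 2458 bp long. Downstream, a region from 6.211 to 8.139 kb was marked in all 9 libraries, at 1510 ± 146 bp in WT, 1189 ± 474 bp for KO and 1060 ± 446 bp for HxD (SD, n = 3 each). Sox2 lies within the noncoding gene Sox2ot, and peaks of these genes cannot be told apart.

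Klf4 (chromosome 4, 55527137 to 55532475, - strand), a zinc finger factor of the circuit, differed in where it was covered more than in how much. Total covered length was 4393, 4257 and 4730 bp in WT, 4741, 4805 and 4534 in KO, and 5009, 4040 and 4180 in HxD. These values overlap, with differences of 233 ± 598 bp for KO and −50.3 ± 598 bp for HxD (SE; limma adjusted p = 0.882 and 0.980; 95% intervals −1041 to 1508 and −1325 to 1224 bp). In each WT library a peak ended upstream of the start and another began inside the gene, leaving 494, 888 and 951 bp around the start without a peak. The 250 bases of the Klf4 promoter printed here, with their 4 GC boxes, lay wholly in that gap. In 3 of 3 KO and 2 of 3 HxD libraries a single peak of 3773 to 4580 bp ran across the start, and HxD replicate 3 had a gap of 580 bp as in WT. A start under a peak in every KO and no WT library was seen for 1.38% of genes. Within 1 kb of the start, peaks covered 1127 ± 85.4 bp in WT, 2001 bp (the whole window) in every KO library and 1808 ± 335 bp in HxD (SD, n = 3 each). In the limma fit on that window, added after the data were seen, Klf4 did not pass (adjusted p = 0.101 in KO, 0.197 in HxD and 0.0619 for both mutants). Every KO library and 2 of 3 HxD libraries filled the window, so its size capped both the differences and their spread in this fit. The highest summit fold, the enrichment value of the authors' deposited lists, was 14.2, 13.8 and 20.0 in WT, 26.3, 28.0 and 36.3 in KO and 23.6, 12.3 and 14.4 in HxD. As a percentile among coding genes of the same library it was 86.1 to 91.7 in WT, 94.7 to 98.9 for KO and 58.2 to 95 across HxD. The noncoding gene Gm12506 starts at −235 bp of Klf4 and shares these peaks.

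**Figure D3:**
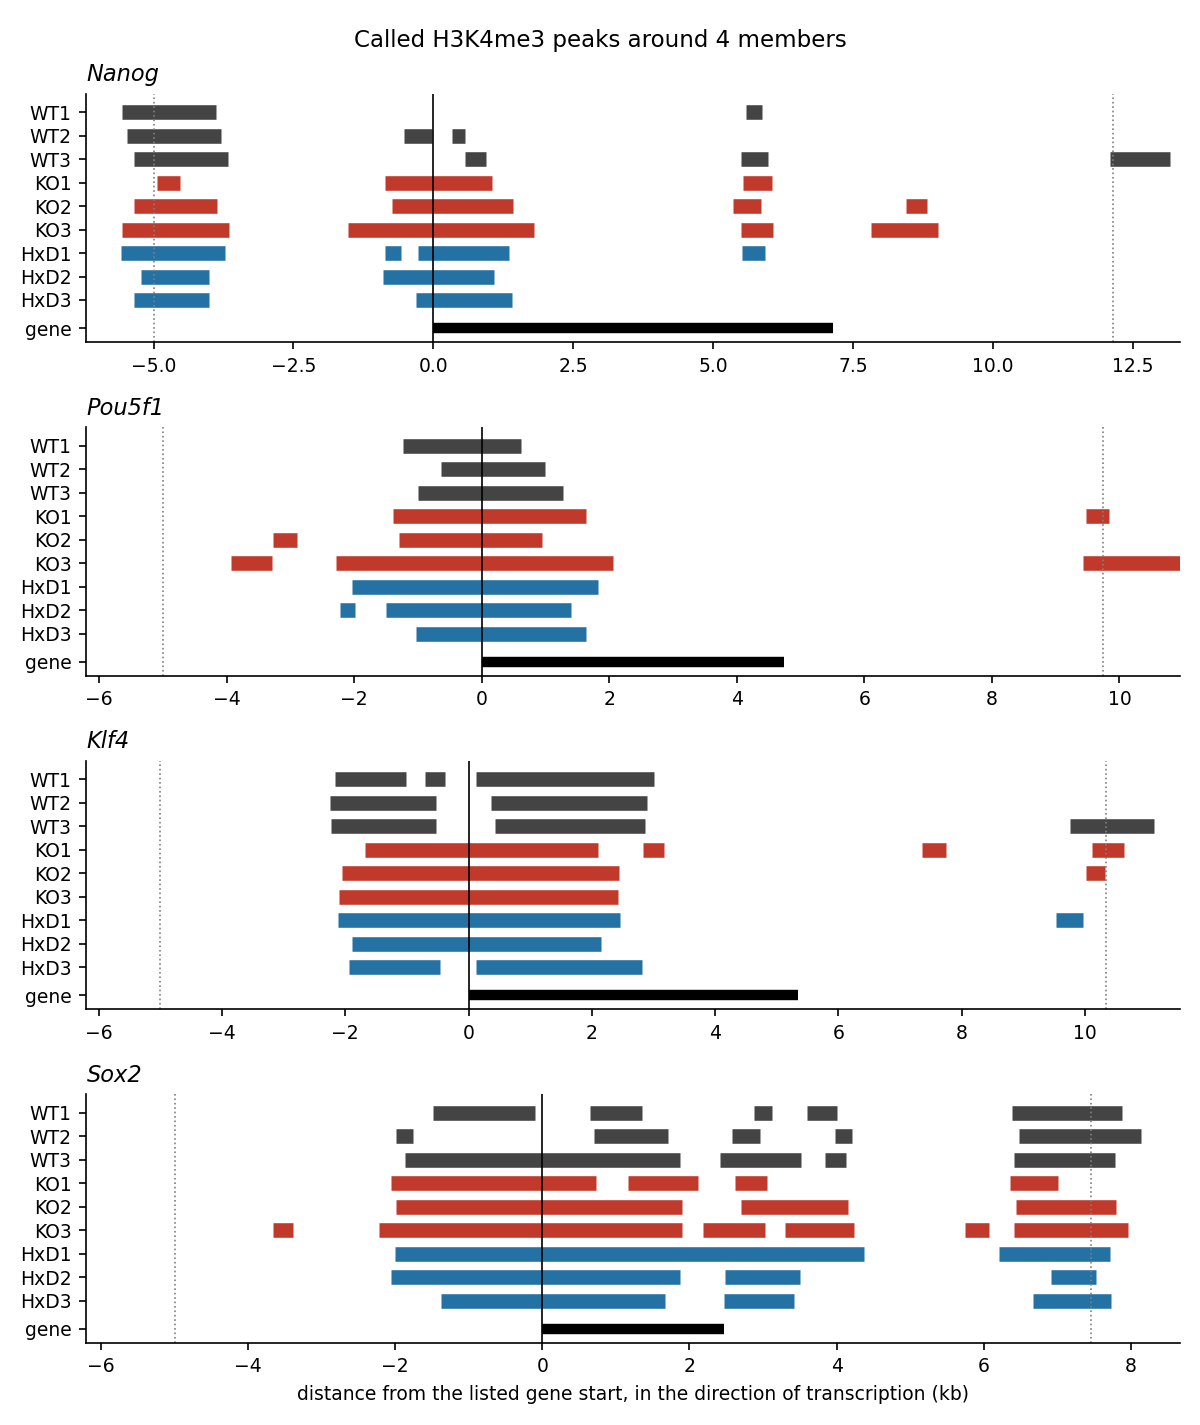
Called peaks in each library around Nanog, Pou5f1, Klf4 and Sox2, by distance from the listed start (kb) in the direction of transcription; bars are peaks (grey WT, red KO, blue HxD), the solid line the start, the black bar the gene model and dotted lines the window of 5 kb on each side. At Nanog and Klf4 no WT peak crosses the start, and at Pou5f1 a peak crosses it in all 9 libraries.

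Esrrb (chromosome 12, 86361117 to 86521628, + strand), an orphan nuclear receptor that sustains naive pluripotency, was the only member with less covered length in all HxD than in all WT libraries. Peaks over its long gene model covered 8935, 8773 and 11570 bp in WT, 6612, 9252 and 8160 in KO, and 8056, 5995 and 6406 in HxD. The difference was −2940 ± 1264 bp in HxD (SE; limma adjusted p = 0.221, exact permutation p = 0.1) and −1751 ± 1264 bp in KO (0.503), where the libraries overlapped WT. The KO difference was −846 bp without WT replicate 3 and −1053 bp without KO replicate 1. The first listed start was under a peak in 2 of 3 WT (1063 and 769 bp), 1 of 3 KO and 1 of 3 HxD libraries. In WT replicate 3 a peak of 461 bp ended 5 bp before that start. The region from −0.606 to 0.456 kb thus had a peak in 3 of 3 WT, 1 of 3 KO and 1 of 3 HxD libraries. The noncoding gene Gm40483 starts 55 bp inside Esrrb. The second listed start, 60.527 kb further on, lies in a region that was marked in all 9 libraries, at 2544, 2535 and 3187 bp in WT, 2314, 3005 and 2503 in KO, and 2293, 2172 and 2200 in HxD. Regions away from both starts differed too. That from 152.671 to 154.281 kb had 1246 ± 340 bp in WT, 604 ± 535 bp for KO and 292 ± 294 bp for HxD (SD, n = 3 each). That from 71.445 to 72.662 kb had 962 ± 113, 540 ± 255 and 418 ± 461 bp. By contrast, the region from 107.907 to 110.108 kb had 1330 ± 111, 1641 ± 180 and 1219 ± 277 bp. Single regions were not tested. Of 19 regions in this window, 2 were in all 9 libraries and 12 in a single library. Whether these are exonic or intronic is not known from the gene table used.

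Lin28a, Utf1, Zfp42 and Tcl1 act beside the core factors, and at each of them the genotypes overlapped or differed by less than the test could call. Lin28a (chromosome 4, 134003330 to 134019196, - strand), an RNA-binding protein that blocks the maturation of let-7 microRNAs and is needed for germ cell formation, had 4793, 4322 and 5944 bp in WT, 5333, 5974 and 7992 in KO, and 6652, 5605 and 5156 in HxD. WT replicate 3 overlapped both mutants, and the differences were 1413 ± 887 bp for KO and 785 ± 887 bp for HxD (SE; limma adjusted p = 0.429 and 0.703). In KO it was 634 bp without KO replicate 3. In HxD it was 361 bp without HxD replicate 1, 436 bp without WT replicate 2 and 1247 bp without WT replicate 3. Its start was under a peak in all 9 libraries. The region at 16.373 to 19.257 kb belongs at least in part to the start of the neighbour Dhdds, which lies 17934 bp from the Lin28a start. That region had 1104 ± 258 bp in WT, 1839 ± 953 bp for KO and 1555 ± 235 bp for HxD (SD, n = 3 each). This length counts toward the Lin28a totals and differences given here. The region over the Lin28a start had means of 2781, 3852 and 3371 bp in the same order. A region from 6.126 to 7.886 kb had 1054, 742 and 878 bp. Utf1 (chromosome 7, 139943856 to 139945112, + strand), a chromatin-bound factor of stem and germ cells, had 3105, 4261 and 4494 bp in WT, 5210, 4771 and 5469 in KO, and 4984, 3645 and 4671 in HxD. All KO libraries were above all WT libraries, and HxD overlapped WT. The differences were 1197 ± 655 bp in KO (limma adjusted p = 0.362, exact permutation p = 0.1) and 480 ± 655 bp in HxD (0.764). Without WT replicate 1 they were 772.5 and 55.8 bp. In HxD, Utf1 was 205 bp without HxD replicate 1, 874 bp without HxD replicate 2 and 750.3 bp without WT replicate 3. Its start region, −0.791 to 2.785 kb, covered 1998 ± 454 bp in WT, 2932 ± 235 bp for KO and 2707 ± 267 bp for HxD (SD, n = 3 each), and 2 more regions were marked in all 9 libraries, one of them at the start of the noncoding gene Gm16201, 6142 bp away.

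Zfp42 (chromosome 8, 43295067 to 43307009, - strand) encodes REX1, a zinc finger marker of the naive state, and had 2644, 3508 and 4110 bp in WT, 3105, 3156 and 3582 in KO, and 3431, 2350 and 2636 in HxD. The values overlapped throughout, with differences of −140 ± 531 bp for KO and −615 ± 531 bp for HxD (SE; limma adjusted p = 0.924 and 0.596). Its promoter shares the octamer core with that of Nanog, and its start was under a peak in all 9 libraries. The Zfp42 start region, −0.956 to 2.356 kb, had 2349 ± 486 bp in WT, 2609 ± 321 bp for KO and 2618 ± 259 bp for HxD (SD, n = 3 each). A region inside the gene, from 10.19 to 11.598 kb, had 726, 1255 and 927 bp in WT, 309, 816 and 617 in KO, and 564, 0 and 0 in HxD. Windows of 5 kb or 1 kb around the start leave that region out. Tcl1 (chromosome 12, 105216753 to 105222737, - strand), a coactivator of AKT signalling expressed in stem cells, had 2572, 2396 and 3009 bp in WT, 1484, 2885 and 3221 in KO, and 3174, 2118 and 3493 in HxD. KO replicate 1 was the lowest and the genotypes overlapped, with differences of −129 ± 546 bp for KO and 269 ± 546 bp for HxD (SE; limma adjusted p = 0.932 and 0.850). Its 95% intervals were −1294 to 1036 bp and −896 to 1434 bp. Tcl1 had 2 regions, at the start and at −3.453 to −1.867 kb, each present in all 9 libraries. For Zfp42 and Tcl1 the sign of the KO difference turned with lists of equal length and with centring (Zfp42 128 and 157 bp, Tcl1 536 and 168 bp).

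**Figure D4:**
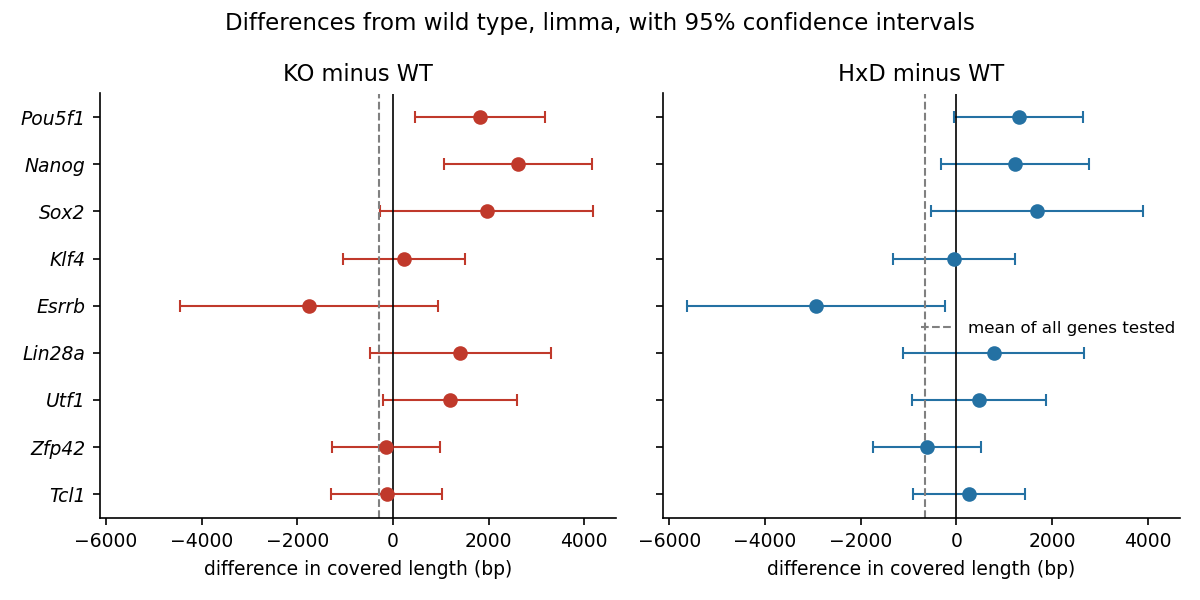
Difference in covered length from WT (bp) for the 9 genes in KO and in HxD, with 95% confidence intervals of the limma fit (n = 3 libraries per genotype); the dashed line is the mean over all genes tested. The intervals of Pou5f1 and Nanog lie above 0 in KO and that of Esrrb lies below 0 in HxD, and none of the 9 genes passed the adjusted threshold.

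No member passed the test between KO and HxD. The mean was higher in KO than in HxD for 8 of 9 members, as for 77% of all genes, and the median difference over the members was 516 bp against 283 bp over all genes. The largest was at Nanog, 1389 ± 726 bp (SE; 95% interval −159 to 2937 bp; limma adjusted p = 1, exact permutation p = 0.3), where HxD replicate 1 (3605 bp) overlapped KO. At Pou5f1 it was 516 ± 634 bp (interval −836 to 1868 bp; limma adjusted p = 1). These intervals include differences of either sign, so the test does not show that the genotypes were alike. In bulk nuclei a longer peak in a larger share of cells and a change in every cell cannot be told apart.

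Fold enrichment at the summit is scaled within each list and is given as a description. For Pou5f1 the highest fold was 7.37, 10.8 and 15.9 in WT, 9.60, 17.8 and 18.5 in KO and 20.9, 16.9 and 12.3 in HxD, and its percentile among coding genes was 58.2 ± 21.5, 57.8 ± 8.63 and 78.5 ± 10.8 (SD, n = 3 each). WT overlapped both mutants in both measures, and KO and HxD overlapped in fold. In the percentile every KO library (48.2 to 64.8) lay below every HxD library (67.0 to 88.6), which was not tested. At Nanog the highest summit in WT was that of the upstream region, with folds of 5.31, 14.9 and 31.6, while its start region had no peak in replicate 1 and folds of 5.88 and 3.58 in replicates 2 and 3. In KO the upstream region had 3.34, 9.26 and 20.9 and the start region 14.2, 8.60 and 14.3, and in HxD 6.94, 17 and 4.10 and 15.0, 11.7 and 5.31. The start region had the lower summit in the 2 WT libraries with peaks in both regions, and in the mutants either could be higher. For Sox2, Esrrb, Lin28a, Utf1, Zfp42 and Tcl1 the highest fold ranged from 7.24 to 32.9 and overlapped between genotypes. The percentile of Esrrb did not overlap WT, and every mutant library was lower. Its lowest WT library (86.6) lay above the highest HxD library (80.8) and the highest KO library (60.4), which was not tested. For Sox2, Lin28a, Utf1, Zfp42 and Tcl1 the percentile of WT overlapped both mutants.

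The wider pluripotency network was read from 32 further genes, all of which were tested. In KO the mean was higher for 21 and lower for 11, with a median difference of 317 bp, and in HxD it was higher for 11 and lower for 21, with a median of −129 bp, against −95.7 and −370.3 bp over all genes. The mean was higher for 44.8% of all genes in KO and for 26.6% in HxD. Limma called 0 of them in each mutant alone and 1, Dppa2, as higher in both mutants against WT (0.179% of all genes). Dppa2 (chromosome 16, 48310274 to 48319513), a chromatin factor of early embryos and germ cells, had 0, 0 and 797 bp in WT, 1385, 1318 and 1430 in KO, and 1966, 1101 and 1124 in HxD. Every mutant library was above every WT library, and the difference was 1122 ± 273 bp (SE; limma adjusted p = 0.0274). The call was lost without WT replicate 1 (0.130) or 2 (0.0857), without KO replicate 3 (0.0566), with stricter peaks (0.0501) and on the log2 scale (0.0590). For Dppa2 in KO and HxD alone adjusted p was 0.0809 and 0.0641. After centring, limma called Dppa2 (adjusted p = 0.0165 and 0.00382) and Lefty1 (0.0144 and 0.0189) as higher in KO and HxD, and Tcf3 as higher in KO (0.0467), and with 10 kb on each side Dppa2 as higher in HxD (0.0495). Over all genes, centring gave higher calls for 4.53% in KO and 2.3% in HxD, and 10 kb on each side for 4 of 19266 genes in HxD. The genes with the largest differences were Lefty1, an antagonist of Nodal signalling, at 2707 ± 969 bp for KO and 2376 ± 969 bp for HxD (SE; limma adjusted p = 0.157 and 0.195), and Tbx3, a T-box factor, at −2603 ± 1409 and −2588 ± 1409 bp (0.358 and 0.347). Tcf3 had 1744 ± 964 bp in KO (0.368), and Otx2, a factor of the primed state, −2197 ± 1379 bp in HxD (0.430). Single libraries carried much of these values. Lefty1 was 1774.5 bp without KO replicate 3 and 1566.5 bp without HxD replicate 2, and Tbx3 was −1024 bp without KO replicate 1 and −1254 bp without HxD replicate 2. Tcf3 was 721 bp without KO replicate 3, 2736 bp without KO replicate 1 and 2619 bp without WT replicate 3. With lists of equal length Tbx3 was −952 bp in KO and −434 bp in HxD, and Otx2 −989 bp in HxD.

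**Figure D5:**
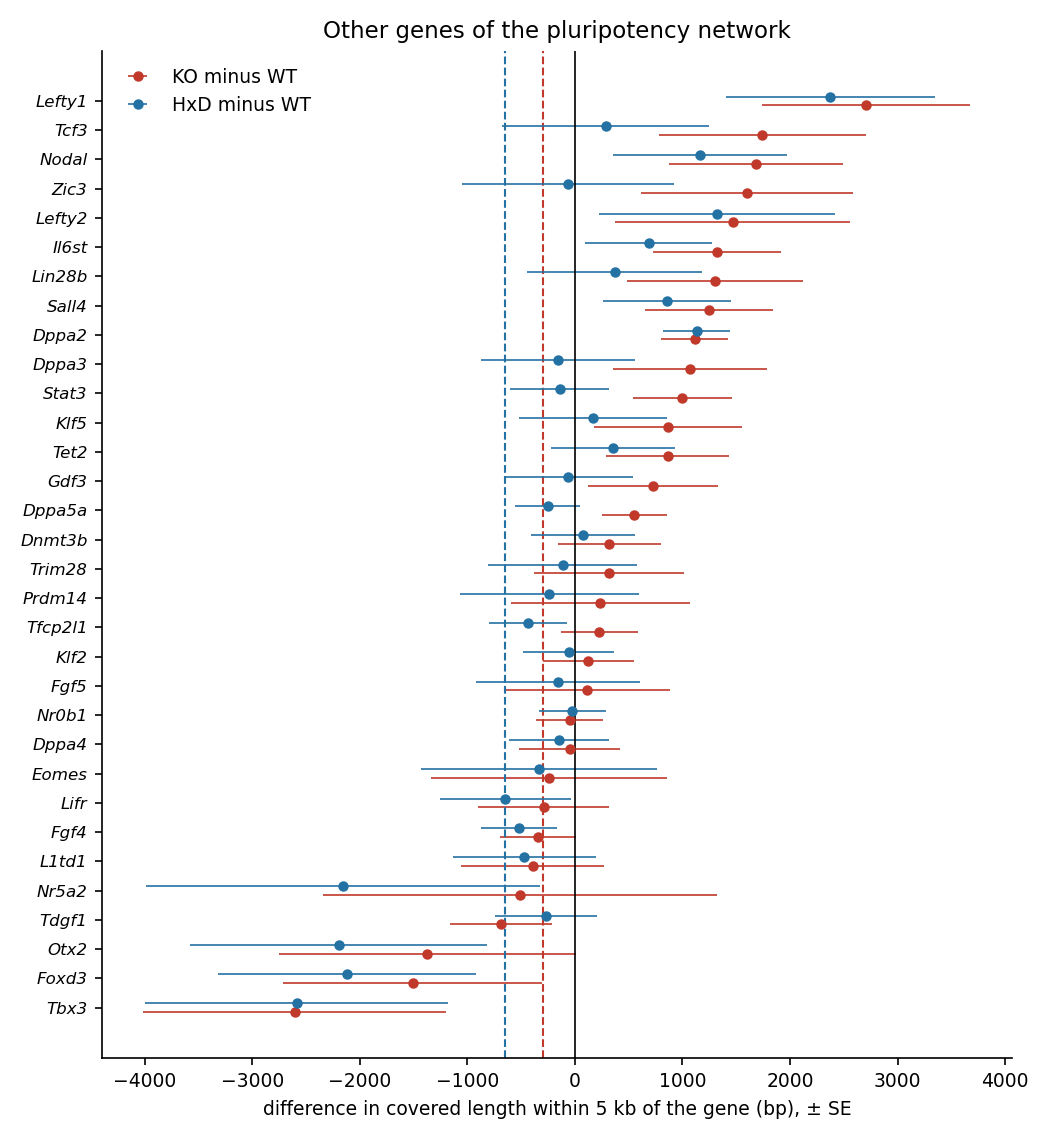
Difference in covered length from WT (bp, ± SE of the limma fit, n = 3 libraries per genotype) for the 32 further network genes, KO in red and HxD in blue; dashed lines are the means over all genes tested. Lefty1 lies highest and Tbx3 lowest in both mutants.

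Likeness of pattern was read from covered length over the 9 libraries, which share genotype and list length between points. Closest to Pou5f1 among 15995 coding genes with a peak in all libraries were Gm39270 (Pearson r = 0.976), Zbtb26 (0.960) and Edrf1 (0.959). Closest to Nanog were Vps35 and Orc6, which share a window (0.985), and Podxl2 (0.984). Podxl2 had 3556, 3914 and 4122 bp in WT, 4238, 4854 and 5490 in KO, and 4551, 4130 and 4221 in HxD. Among the members, Pou5f1 had r = 0.903 with Lin28a, 0.890 with Nanog, 0.780 with Sox2 and 0.666 with Utf1, but 0.276 with Klf4, 0.206 with Tcl1, 0.135 with Zfp42 and −0.313 with Esrrb. The Lin28a window includes the region at the start of Dhdds. The mean covered length over all coding genes had r = 0.0282 with Pou5f1 and 0.191 with Nanog. These are descriptions over 9 points and carry no test.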

How the data were processed

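Peaks of 9 H3K4me3 CUT&RUN libraries were analysed. The submitters' processing notes name MACS2 2.1.0, Bowtie2 2.5.0, Trim Galore, deepTools 3.5.1, bedtools 2.27.1 and SAMtools 1.16.1, and the build mm10; the sources used here give neither roles nor order, nor the control of the peak calls. The authors deposited 1 peak list per library, with a score, a summit fold enrichment (a linear ratio) and −log10 p and −log10 q values per peak. The smallest deposited −log10 q was 2.00 to 2.02. These values are the authors' own.

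From the lists, the bp covered by peaks within 5 kb of each RefSeq gene model (GRCm38.p6, coordinates 1-based) were computed per library. Reads were not analysed, so depth is unknown. Starts and strands came from the RefSeq promoter table, for 17492 coding genes. Genes with a peak in at least 3 of 9 libraries (18470, all 9 members among them) entered 1 limma 3.58.1 fit (R 4.3.3; genotype means, eBayes with trend, Benjamini-Hochberg, threshold 0.05), tested on simulated data. The simulated noise was independent per gene and library, so that test did not cover differences in list length between libraries. Two-sided exact permutation tests (scipy 1.17.1) were run per member. Same-numbered libraries did not deviate together, so no block was used. At most 6 peaks were identical in any pair of lists. The lists of network and marker genes, and the members, were chosen with earlier results of these data known. All 9 members were named. Of the 32 network genes, those called, plus the 3 with the largest difference per mutant, were named. For likeness the 3 highest correlations were named, leaving out overlapping windows. Neighbours starting in a window were named too, with Tcf19 and Sox2ot added after the values were seen. Alternatives covered peak strictness, list length, windows, joined peaks, centring, log2(bp + 200), no filter, a replicate block and each library left out; the window of 1 kb around starts was added after the data were seen.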

Additional observations from a re-analysis of the deposited data

How the results depend on the processing

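Covered length was compared between lists of unequal length, and the read depth behind them is unknown. None of the 9 genes passed limma's adjusted threshold as reported. With lists of equal length 1 passed in KO against WT and 1 in both mutants against WT, with 2 kb on each side of the gene 1 and 1, and with 1 kb on each side of the starts 1 in both mutants, each time Nanog. After centring 2 passed in KO, 2 in HxD and 3 in both mutants (Nanog and Pou5f1, and in the last Sox2). Calls as higher over all genes also rose with centring. They went from 0.103% to 4.53% in KO, from 0.0217% to 2.3% in HxD and from 0.179% to 7.33% in both mutants. With lists of equal length they were 2.05% in KO and 2.95% in both mutants, and with 2 kb 0.106% and 0.19%. With 1 kb around the starts they were 0.341% in both mutants. Leaving out 1 library gave 0 to 1 calls in KO and 0 to 1 in both mutants, the call being Nanog without KO replicate 1. Stricter peaks, 10 kb, 5 kb around starts, joined peaks, log2(bp + 200) and no filter gave 0 calls. Same-numbered libraries had correlations of their deviations from −0.631 to 0.406, and 2 of 9 correlated best with their own number. No pairing by number was thus seen, though 3 libraries per genotype are too few to show that there was none. With the replicate number as a block 0 members were called in every comparison.

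Against WT, the differences of Pou5f1, Nanog, Sox2, Esrrb, Lin28a and Utf1 kept their sign in all 21 settings, though leaving out 1 library moved each of these genes by over 1.5 times in KO or HxD. Those of Klf4, Zfp42 and Tcl1, and several between the mutants, turned; the cause was not tested. In KO against WT, Klf4 was −5.33 bp with stricter peaks, −287 bp with 10 kb and −26.7 bp with joined peaks. Zfp42 was 128 bp with equal lists, 260.3 bp with 5 kb around starts, 43.3 bp with joined peaks and 157 bp centred, and −528 to 205 bp with a library left out. Tcl1 was 536 bp with equal lists and 168 bp centred, and −474.5 to 394 bp with a library left out. In HxD against WT, Klf4 was 62 bp with stricter peaks, 114 bp with equal lists, 180.3 bp with 2 kb, 2 bp with 5 kb around starts, 680.3 bp with 1 kb around starts and 603 bp centred, and −350 to 134.5 bp with a library left out. Zfp42 was 269 bp with 5 kb and 96 bp with 1 kb around starts and 38.7 bp centred. Tcl1 was −13 to 674.5 bp with a library left out. In KO against HxD, Pou5f1 was −27.7 bp with 2 kb, and Sox2 −40 bp with 2 kb, −91.7 bp with 1 kb around starts and −89.1 bp centred. Klf4 was −67.3 bp with stricter peaks and −73.1 bp centred, and Zfp42 −8.33 bp with 5 kb and −118 bp with 1 kb around starts. With a library left out, Pou5f1 ranged over −268.5 to 1077 bp, Sox2 over −383.5 to 1097 bp, Lin28a over −151 to 1179 bp and Tcl1 over −803.5 to 125 bp. In both mutants against WT, Klf4 was −484 bp with 10 kb, −170.5 bp with joined peaks and −58.3 to 226.5 bp with a library left out. Zfp42 was 264.5 bp with 5 kb and 37.2 bp with 1 kb around starts and 98.0 bp centred. Tcl1 was −54.7 bp with 1 kb around starts, −0.00916 on the log2 scale and −103 to 332 bp with a library left out.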
